A study of Mus musculus with 37 samples.

Results

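Replication-type histone genes encode the bulk of the histones that package newly copied DNA: the core histones H2A, H2B, H3 and H4, of which the nucleosome is built, and linker histone H1, which binds where DNA enters and leaves it. They were taken here as every protein-coding gene of the count tables whose name starts with Hist1h, Hist2h, Hist3h or Hist4h. That rule gave 68 of 35290 genes, made up of 6 H1, 19 H2A, 18 H2B, 12 H3 and 13 H4 genes. By name, 55 belong to the Hist1 cluster, 10 to Hist2, 2 to Hist3 and 1 to Hist4. A further 3 genes with such names had another gene type and were left out.

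The study asked how retinoids and other compounds act on BCR-ABL1 leukaemia cells with an altered IKAROS (gene Ikzf1), a transcription factor of B cell development. All 37 libraries came from cultured C57BL/6 mouse pre-B cells, started from adult bone marrow, that lack Arf (a tumour suppressor acting on the p53 pathway) and were transformed with the p185 form of the BCR-ABL1 kinase. Both the Arf deletion and BCR-ABL1 are thus shared by every group, the DMSO controls included. The cells carried either MIG-IK6, which expresses IK6, an IKAROS isoform without the DNA-binding zinc fingers that acts as a dominant negative, or MIG, the same GFP vector left empty. Cells grew without added cytokines, and each compound was given at 1 µM in DMSO. Cells with IK6 received ATRA (n = 4 libraries), bexarotene (n = 3), carbacyclin (n = 3), NOE (n = 4) or DMSO alone (n = 4). Cells with MIG received ATRA (n = 4), bexarotene (n = 3), carbacyclin (n = 4), NOE (n = 4) or DMSO alone (n = 4). ATRA is all-trans retinoic acid, the acid form of vitamin A, which binds the retinoic acid receptors, and bexarotene is a synthetic retinoid that binds the retinoid X receptors. Carbacyclin is a stable analogue of prostacyclin, and NOE is N-oleoylethanolamine, a fatty acid amide. The labels do not say how long the cells were treated, nor whether replicates were separate cultures or the lines single clones. The p-values therefore cover library-to-library spread, which may be technical.

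As background, most of these genes have no introns, and their transcripts end in a short stem-loop in place of a poly(A) tail. The stem-loop binding protein SLBP and the U7 small nuclear ribonucleoprotein direct the cut after that stem-loop, and NPAT, a target of cyclin E and CDK2, activates histone transcription at the start of S phase. The transcripts build up in S phase and are degraded when DNA synthesis stops. Several of the genes can also produce longer, polyadenylated transcripts by ending past the stem-loop, which is known in cells that have left the cycle.

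The stem-loop is the sequence that sets these transcripts apart, so the windows of 9 members that the results below turn on are shown. Each window is 5′ to 3′, is taken from the GENCODE M21 transcript (GRCm38), lies after the stop codon and has the 16 bases of the stem-loop in capitals.
Hist1h1c: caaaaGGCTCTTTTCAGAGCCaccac
Hist3h2a: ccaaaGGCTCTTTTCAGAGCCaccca
Hist1h2ag: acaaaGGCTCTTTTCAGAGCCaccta
Hist1h2bg: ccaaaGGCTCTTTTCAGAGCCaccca
Hist1h2bj: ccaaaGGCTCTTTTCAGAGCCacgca
Hist1h2bk: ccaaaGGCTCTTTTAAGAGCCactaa
Hist1h3c: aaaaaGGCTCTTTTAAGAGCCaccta
Hist1h4d: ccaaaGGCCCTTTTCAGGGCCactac
Hist1h4i: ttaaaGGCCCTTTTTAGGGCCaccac
Of the 67 members matched to an M21 protein-coding transcript (54 by gene ID and 13 by symbol), 43 held such a stem-loop after the stop codon of their longest transcript. Anywhere in the sequence, 63 of all 141767 M21 transcripts held one (0.0444%), so the measures differ. The most frequent form, that of Hist1h1c, was found in 25 members, that of Hist1h4d in 7 and that of Hist1h2bk and Hist1h3c in 6. Among the 24 members without an exact match, 15 had an annotated transcript that ended within 30 bases of the stop codon, so the window was mostly missing there. Hist2h2be, Hist1h2bc, Hist1h2bq and Hist1h2br had no exact match, although 2192, 742, 823 and 823 annotated bases followed their stop codons. Past the stem-loop, the annotated transcript ran on for 1643 bases in Hist3h2a, 840 in Hist1h1c, 770 in Hist1h4d, 330 in Hist1h4i and 155 in Hist1h2bg. It ended 23 bases past the stem-loop in Hist1h2bj and Hist1h2ag, 30 in Hist1h2bk and 74 in Hist1h3c.

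The promoters shown next belong to the linker histone gene that rose with ATRA and fell with NOE, and to 2 H2B genes that responded to different compounds. Each runs from 250 bases before to 50 bases after the annotated start, with the CCAAT box, the TATAAA box and the octamer ATTTGCAT (bound by OCT1) in capitals where they were found on either strand. The sequences are from RefSeq, build GRCm38.p6, and all 3 lie on the plus strand.
Hist1h1c promoter, chr13:23738557-23738856: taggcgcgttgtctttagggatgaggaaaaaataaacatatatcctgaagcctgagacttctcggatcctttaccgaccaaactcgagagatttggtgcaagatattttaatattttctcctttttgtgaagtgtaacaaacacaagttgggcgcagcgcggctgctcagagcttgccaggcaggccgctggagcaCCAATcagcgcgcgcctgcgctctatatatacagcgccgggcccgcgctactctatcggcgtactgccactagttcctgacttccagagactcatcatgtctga
Hist1h2bg promoter, chr13:23571150-23571449: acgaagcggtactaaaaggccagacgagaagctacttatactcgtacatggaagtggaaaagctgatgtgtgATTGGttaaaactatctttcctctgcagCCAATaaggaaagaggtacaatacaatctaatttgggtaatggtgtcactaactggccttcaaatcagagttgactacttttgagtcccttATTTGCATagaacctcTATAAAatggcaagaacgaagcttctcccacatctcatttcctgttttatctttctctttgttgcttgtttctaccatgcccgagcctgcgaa
Hist1h2bj promoter, chr13:22042948-22043247: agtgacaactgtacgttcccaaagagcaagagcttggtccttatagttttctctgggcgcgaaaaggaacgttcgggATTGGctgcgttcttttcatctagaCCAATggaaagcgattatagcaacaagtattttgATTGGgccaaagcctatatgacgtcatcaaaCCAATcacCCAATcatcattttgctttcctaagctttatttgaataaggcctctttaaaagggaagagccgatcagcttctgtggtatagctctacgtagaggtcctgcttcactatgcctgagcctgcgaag
CCAAT, searched on both strands and with no overlap to the other motifs required or forbidden, was present in 52 of 61 matched member promoters (85.2%), against 37.4% of the 32851 promoters of the same length. All 49 promoters of the H1, H2A, H2B and H3 members held it, and 3 of the 12 H4 promoters did. TATAAA was present in 35 of 61 (57.4%), against 13.6% of all promoters. ATTTGCAT was present in 13 of 61 (21.3%), against 1.74% of all promoters, and these were 7 of the 17 H2A and 6 of the 16 H2B promoters. An H2A and an H2B gene faced each other across overlapping windows in 9 pairs, among them Hist1h2ag with Hist1h2bj (252 shared bases) and Hist1h2ae with Hist1h2bg (279 shared bases).

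The 68 members drew 112579 counts in all, or 1233 to 7786 per library, of library totals of 16.5 to 80.4 M counts. How well the library kit captured transcripts without a poly(A) tail was not measured, so these counts need not reflect all member RNA. Changes in them may likewise differ from changes in the transcripts that end at the stem-loop. Counting was concentrated in few genes. Levels here are counts-per-million values (CPM) on the library size after TMM scaling (trimmed mean of M-values), and levels of different genes are compared only per kb of annotated transcript. Hist2h2be, which encodes an H2B variant studied in mouse olfactory neurons, took 24.9% of the member counts, and Hist1h1c, a somatic linker histone gene, took 23.6%. The H2B gene Hist1h2bc took 11.0%, the H4 gene Hist1h4i took 8.31%, the H2A gene Hist3h2a took 4.31% and the H2B gene Hist1h2bg took 3.66%. These 6 members together held 75.8% of the counts, and 5 of them had 300 or more annotated bases after the stop codon. Of all members, 8 averaged at least 1 CPM, and 49 passed the filter on low counts and were tested. Per kb, Hist1h1c was highest at 12.3 CPM, followed by Hist1h4i at 9.24, Hist1h2bc at 7.66, Hist2h2be at 7.60 and Hist1h2bg at 4.89 CPM per kb.

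The 19 members that did not pass the filter were Hist1h1t, Hist1h2aa, Hist1h2al, Hist2h2aa1, Hist2h2aa2, Hist2h2ab, Hist2h2ac, Hist1h2ba, Hist1h2bf, Hist1h2bm, Hist1h2bp, Hist2h2bb, Hist2h3b, Hist2h3c1, Hist1h4a, Hist1h4b, Hist1h4f, Hist1h4j and Hist4h4. Of these, Hist1h2aa, Hist2h2aa1, Hist2h2aa2, Hist2h3b and Hist2h3c1 had 0 counts in every library. Near-identical copies bear on such values, because a read that matches several copies may be dropped or assigned to one of them. In 34 of the 67 matched members, fewer than 50% of the 50-base windows of the transcript were absent from every other gene, and in 6 members none was. Of the 5 members at 0 counts, 4 were among those 6. The share of unique windows was 100% for Hist2h2be, 91.5% for Hist1h1c, 71.1% for Hist1h4i, 69.4% for Hist1h2bc, 68.5% for Hist3h2a and 50.3% for Hist1h2bg. It was 40.6% for Hist1h2bj, 25.8% for Hist1h2bk, 21.1% for Hist1h2ag, 6% for Hist1h2af, 0.166% for Hist1h2br and 0% for Hist1h2bq, and values of these last members are uncertain. Over the 67 members, Spearman's rho between the level per kb and the share of unique windows was -0.02, a description across genes that share libraries. In M21, 21 members overlapped a gene on the other strand, Hist1h2ae, Hist1h2af and Hist1h2ag among them, and 7 overlapped one on the same strand. Hist3h2a and Hist1h2ac were among the members that did both. The sources used here do not say whether counting used strand, so reads of such partners cannot be told apart.

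**Figure D1:**
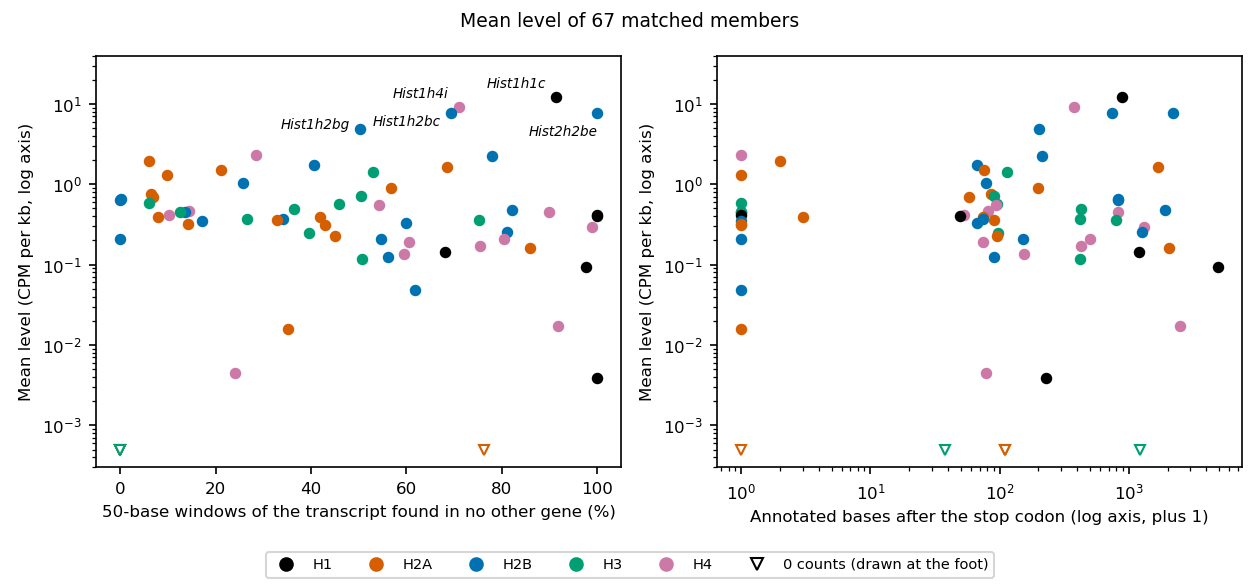
Mean level of the 67 matched members over the 37 libraries, in CPM per kb on a log axis, against the share of 50-base windows found in no other gene (left) and the annotated bases after the stop codon plus 1 (right, log axis). Points are genes coloured by histone family, and open triangles at the foot are members with 0 counts. The highest members, Hist1h1c, Hist1h4i, Hist1h2bc, Hist2h2be and Hist1h2bg, had 50.3% or more unique windows and 200 or more bases after the stop codon. Among members with under 50% unique windows, Hist1h4k was highest at 2.34 CPM per kb. Members of low level occur across both x axes.

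The cells matched their label: the 10 B lineage markers averaged at least 1 CPM each and summed to 3967 to 8746 CPM per library, while 7 T cell markers summed to at most 0.382 CPM. Myeloid markers summed to 1.77 to 15.4 CPM, with S100a8 and S100a9 at 0 counts, erythroid markers to 1.83 to 38.0 CPM, and stromal and endothelial markers to 46.6 to 117 CPM. In the myeloid list, the erythroid list and the stromal and endothelial list alike, only 1 gene averaged at least 1 CPM. The share of counts in ribosomal protein genes was 15.4% in MIG DMSO replicate 3, 15.5% in MIG carbacyclin replicate 4 and 12.5% in MIG bexarotene replicate 3, and 7.33% to 11.5% in the other 34 libraries. Counts of member genes are therefore also given without these 3 libraries where they matter.

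Summed member levels were lowest in MIG cells with NOE. Summed over all 68 members, MIG cells with NOE had 47.9, 46.1, 39.6 and 41.9 CPM, against 79.5, 82.7, 99.5 and 83.8 CPM with DMSO, so the groups did not overlap. Cells with IK6 had 75.8, 71.8, 66.6 and 82.1 CPM with NOE, against 85.3, 92.9, 93.1 and 94.9 CPM with DMSO, again without overlap but closer together. Bexarotene gave a like sum in IK6 cells, at 74.0, 81.0 and 69.4 CPM, also below every IK6 DMSO library. In MIG cells it was 71.6, 78.3 and 80.4 CPM with bexarotene, which overlapped DMSO. With carbacyclin the make-up of the total differed more than the total itself. The total averaged 86.6 ± 15.7 CPM with carbacyclin and 86.3 ± 8.93 CPM with DMSO in MIG cells (SD, n = 4 each), a difference within the spread. The 62 members outside the 6 most counted ones summed to 21.9, 26.2, 28.3 and 39.2 CPM with carbacyclin, against 19.3, 19.2, 22.0 and 19.4 CPM with DMSO in MIG cells. In IK6 cells that sum was 32.1, 26.3 and 26.9 CPM with carbacyclin, against 19.9, 19.8, 18.6 and 20.8 CPM with DMSO. The lowest MIG carbacyclin library lay just under the highest MIG DMSO library, which was replicate 3, and the IK6 groups did not overlap. In bulk RNA, fewer cells that express a gene and less of its RNA per cell cannot be told apart.

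**Figure D2:**
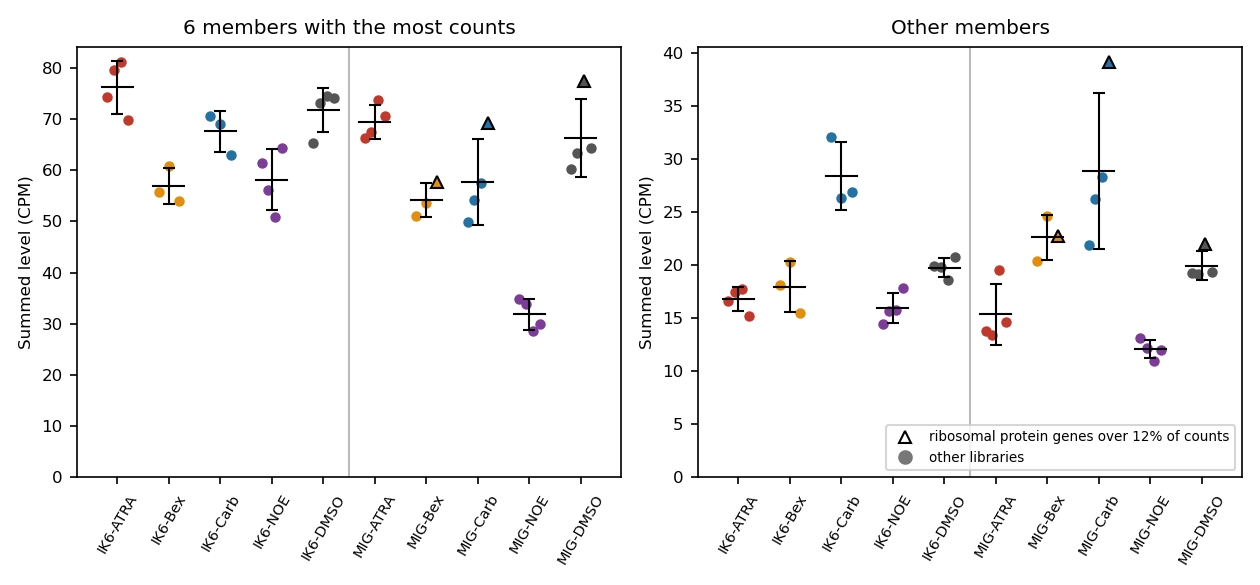
Summed level in CPM per library of the 6 most counted members and of the other members, by vector and treatment; points are libraries, lines the group mean and SD, and triangles the 3 libraries with more than 12% ribosomal protein counts. NOE libraries of MIG cells sit lowest for both sums. For the other members, the carbacyclin group means are the highest in each vector (28.9 CPM in MIG and 28.5 CPM in IK6 cells), although single libraries overlap those of other groups in MIG cells.

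**Figure D3:**
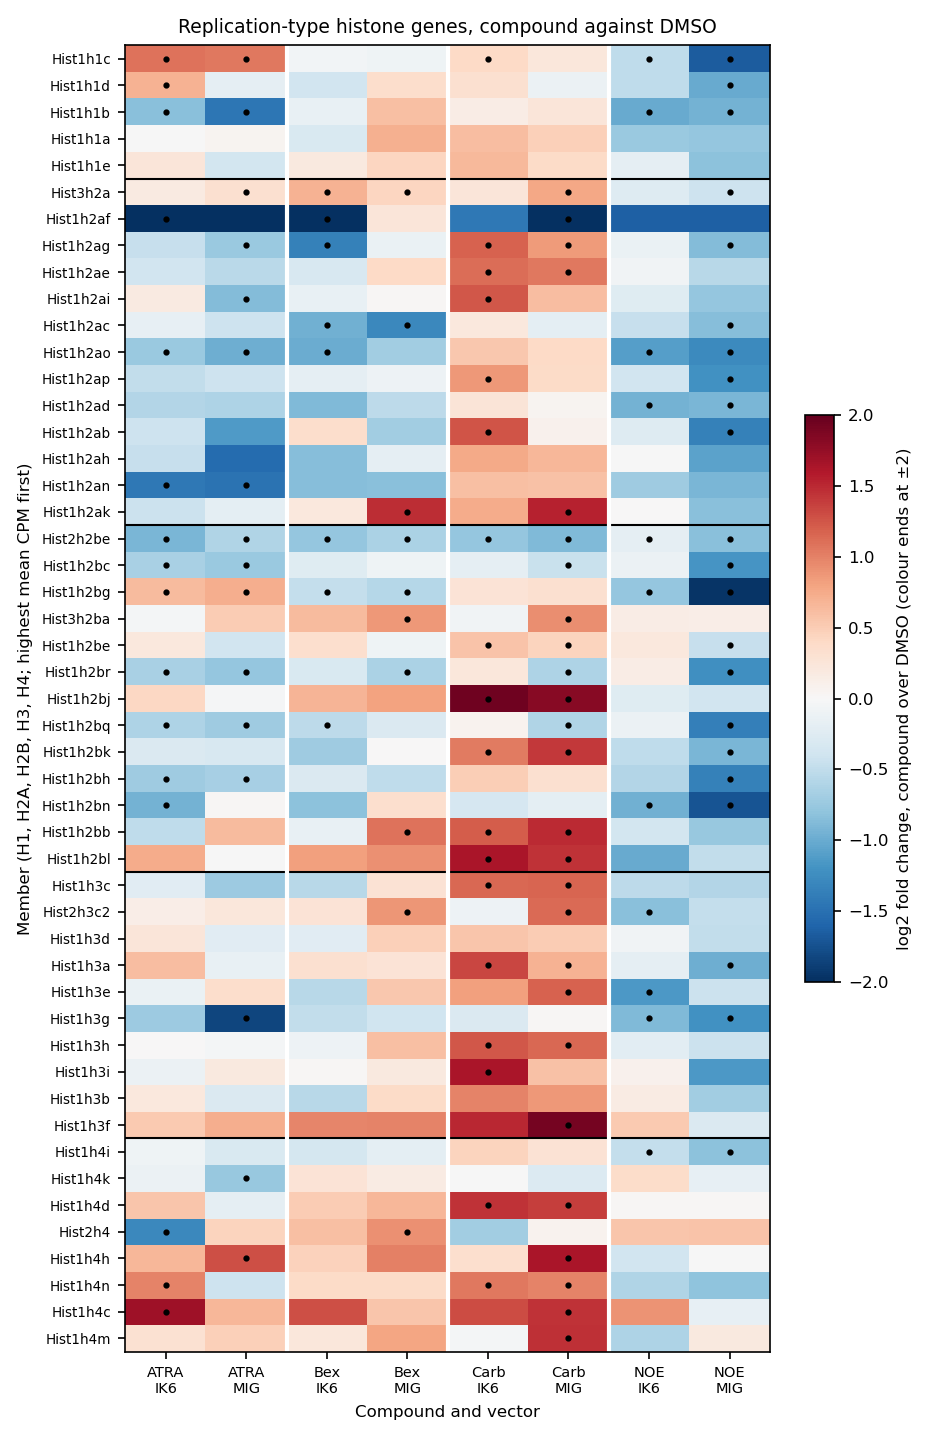
Log2 fold change against DMSO (colour) of the 49 tested members, ordered by histone family, for 4 compounds in each vector; a dot marks an adjusted p below 0.05. Hist2h2be carries a dot in all 8 columns, carbacyclin columns are mostly positive (40 and 39 of 49 members) and NOE columns mostly negative (45 and 38 of 49).

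With NOE the members fell broadly in MIG cells. There, 22 of the 49 tested members fell (44.9%), against 22.3% of the 15699 genes tested, and 0 rose, against 22.6% of all genes (44.9% of all genes changed either way; edgeR quasi-likelihood test, Benjamini-Hochberg adjusted p below 0.05). No member was higher at an unadjusted p below 0.05 either, and DESeq2 called 0 higher and 19 lower. The median log2 fold change was -0.83 over the members and 0.00 over all genes tested. In IK6 cells 11 members fell (22.4%), against 18.2% of all genes, and 0 rose, against 22.8% (40.9% either way), with medians of -0.27 and 0.03. At an unadjusted p below 0.05, 0 members were higher and 15 lower there, and DESeq2 called 0 higher and 9 lower. Calls in MIG cells covered every family, with 3 of 5 H1, 7 of 13 H2A, 9 of 13 H2B, 2 of 10 H3 and 1 of 8 H4 members lower. Small nuclear RNAs and RNase P RNA, which carry no poly(A) tail, summed to 85.6 to 94.6 CPM with NOE and 37.2 to 69.0 CPM with DMSO in MIG cells, without overlap, and to 43.5 to 80.1 CPM with NOE and 60.7 to 73.1 CPM with DMSO in IK6 cells, with overlap. Their part in the result was not tested. Without IK6 DMSO replicate 4 the IK6 count was 5 members lower, and without IK6 NOE replicate 3 it was 7.

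Hist1h1c carried the linker histone change. It had 5.17, 4.56, 4.19 and 4.39 CPM in MIG cells with NOE, against 12.9, 13.4, 17.6 and 14.3 CPM with DMSO. In IK6 cells it had 14.7, 12.1, 11.0 and 13.2 CPM with NOE, against 14.5, 19.8, 19.7 and 18.8 CPM with DMSO. The MIG groups were far apart, whereas in IK6 cells NOE replicate 1 lay above DMSO replicate 1. The log2 fold change was -1.66 ± 0.12 in MIG cells (SE, adjusted p = 4.2e-13) and -0.51 ± 0.11 in IK6 cells (adjusted p = 0.00044). The difference between the vectors, IK6 minus MIG, was 1.15 ± 0.17 (adjusted p = 1e-05). Hist1h1d fell by 1.01 ± 0.27 in MIG cells (adjusted p = 0.0022), and Hist1h1b fell by 1.01 ± 0.30 in IK6 cells (adjusted p = 0.0066). In MIG cells Hist1h1b had a log2 fold change of -0.94 ± 0.35 (adjusted p = 0.028), a call lost when any of MIG NOE replicates 1, 2 and 3 or MIG DMSO replicates 1 and 4 was left out (adjusted p of 0.072 to 0.11).

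Of the 6 most counted members, the H2B gene Hist1h2bg had the lowest NOE fold change in both vectors. It had 0.806, 0.599, 0.594 and 0.816 CPM in MIG cells with NOE, against 2.31, 2.52, 2.70 and 3.49 CPM with DMSO, and in IK6 cells 1.67, 1.81, 1.99 and 2.17 CPM with NOE, against 2.89, 3.79, 3.07 and 3.42 CPM with DMSO. The groups did not overlap in either vector. Its log2 fold change was -1.97 ± 0.17 in MIG cells (adjusted p = 2.1e-11) and -0.77 ± 0.15 in IK6 cells (adjusted p = 5.9e-05), a difference of 1.20 ± 0.23 between them (adjusted p = 0.00042). Hist1h2ae, the H2A gene that shares its promoter region, had log2 fold changes of -0.55 in MIG cells (adjusted p = 0.118) and -0.06 in IK6 cells (adjusted p = 0.885), which did not pass. Hist1h2bc had 5.21, 5.71, 4.70 and 3.71 CPM in MIG cells with NOE, against 9.31, 9.89, 14.9 and 10.5 CPM with DMSO. In IK6 cells Hist1h2bc had 11.6, 9.83, 8.12 and 11.8 CPM with NOE, against 10.8, 10.7, 11.9 and 11.5 CPM with DMSO. It fell by 1.19 ± 0.15 in MIG cells (adjusted p = 9.7e-08), whereas the IK6 groups overlapped, with a log2 fold change of -0.11 (95% interval -0.41 to 0.18).

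Hist2h2be had 16.3, 16.0, 13.3 and 15.3 CPM in MIG cells with NOE, against 26.0, 27.4, 28.6 and 27.0 CPM with DMSO. In IK6 cells it had 25.7, 25.6, 22.5 and 28.6 CPM with NOE, against 27.1, 28.6, 30.3 and 30.4 CPM with DMSO. The MIG groups were separate, and in IK6 cells NOE replicate 4 lay within the DMSO range. Hist2h2be fell by 0.84 ± 0.07 in MIG cells (adjusted p = 3e-12) and by 0.18 ± 0.07 in IK6 cells (adjusted p = 0.026), with a difference of 0.66 ± 0.10 (adjusted p = 8e-06). The small IK6 call was lost without IK6 NOE replicate 3 (adjusted p = 0.13), IK6 DMSO replicate 3 (0.075) or IK6 DMSO replicate 4 (0.079). The pair Hist1h2bq and Hist1h2br, which have the same coding sequence and almost no unique windows, fell by 1.37 ± 0.21 and 1.23 ± 0.21 in MIG cells. Their differences between the vectors were 1.26 ± 0.28 (adjusted p = 0.002) and 1.37 ± 0.29 (adjusted p = 0.0012). The H4 gene Hist1h4i had 5.11, 4.68, 3.57 and 3.74 CPM in MIG cells with NOE, against 6.93, 7.27, 10.2 and 6.30 CPM with DMSO, without overlap. It fell by 0.83 ± 0.18 (adjusted p = 0.00025) in MIG cells. In IK6 cells Hist1h4i fell by 0.47 ± 0.17 (adjusted p = 0.03), a call lost when any of IK6 DMSO replicates 1 and 4 or IK6 NOE replicates 2 and 3 was left out (adjusted p of 0.058 to 0.082).

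In the test of the difference between vectors, 6 of 49 members (12.2%) responded differently to NOE, all with the higher fold change in IK6 cells. Of all genes 8.82% did, 6.62% in that direction and 2.20% in the other, so the share of members was near the background. The 6 were Hist1h1c, Hist1h2bc, Hist1h2bg, Hist1h2bq, Hist1h2br and Hist2h2be, and all 6 calls were kept whichever single library was left out. They include 4 of the 6 most counted members. Over the 49 members, the NOE fold changes in the vectors had the same sign in 40, with Pearson's r of 0.47 and Spearman's rho of 0.39, given as a description across genes. The members called lower in both vectors were 9, namely Hist1h1b, Hist1h1c, Hist1h2ad, Hist1h2ao, Hist1h2bg, Hist1h2bn, Hist1h3g, Hist1h4i and Hist2h2be, which is 9 of the 22 calls in MIG cells and 9 of the 11 in IK6 cells. The matching share over all genes was not computed, so this overlap is a description only. Among the 9, Hist1h1c, Hist1h2ao and Hist1h2bg kept both calls whichever single library was left out, and the others did not.

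**Figure D4:**
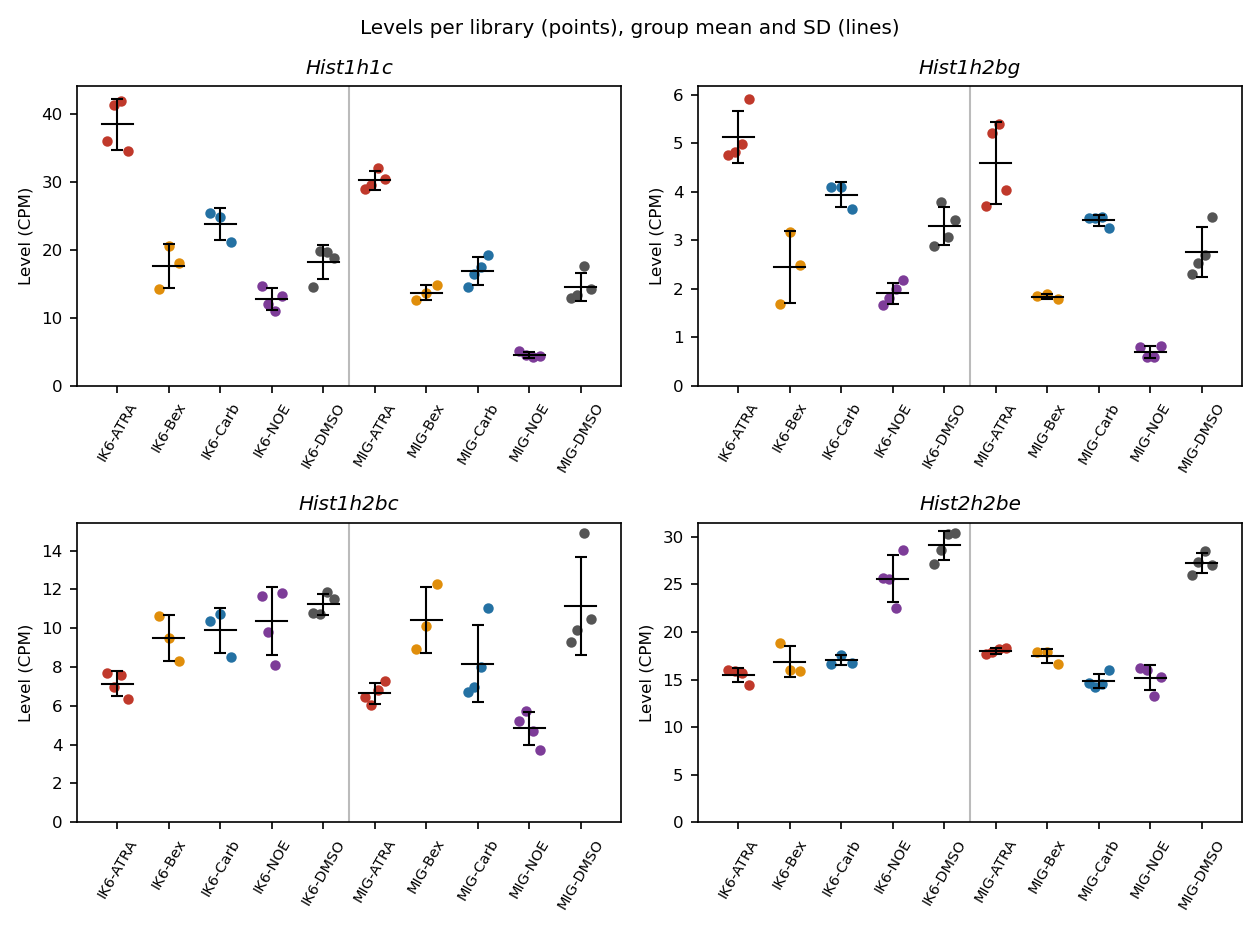
Level in CPM per library of Hist1h1c, Hist1h2bg, Hist1h2bc and Hist2h2be by vector and treatment; points are libraries, lines the group mean and SD. Hist1h1c reaches 34.6 to 42.0 CPM in IK6 and 28.9 to 32.1 CPM in MIG cells with ATRA and drops to 4.19 to 5.17 CPM in MIG cells with NOE.

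With carbacyclin many members rose, while the most counted of them, Hist2h2be, fell. In MIG cells 21 of 49 rose (42.9%), against 24.7% of all genes, and 5 fell (10.2%), against 23.3% (48.0% of all genes changed either way), with a median log2 fold change of 0.58 over the members and 0.02 over all genes. In IK6 cells 17 rose (34.7%), against 20.8% of all genes, and 1 fell, against 18.8% (39.6% either way), with medians of 0.57 and 0.01. In MIG cells 6 of 10 H3 and 5 of 8 H4 members rose, with family medians of 1.00 and 1.18, and 4 of 13 H2A and 6 of 13 H2B members rose as well. In IK6 cells the rising members were 4 of 10 H3, 2 of 8 H4, 5 of 13 H2A, 5 of 13 H2B and 1 of 5 H1. The counts depended on the fit and on single libraries. Fitting the compared groups alone, 9 rose and 3 fell in MIG cells. Without MIG carbacyclin replicate 4, which had a high ribosomal protein share, 13 members rose and 4 fell in MIG cells. Without all 3 libraries of high ribosomal protein share, 15 rose and 5 fell. In IK6 cells, 9 rose and 1 fell without IK6 carbacyclin replicate 1.

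Hist1h2bj, the H2B gene whose promoter is shown above, rose in both vectors. It had 1.26, 1.57, 1.69 and 2.52 CPM in MIG cells with carbacyclin, against 0.610, 0.445, 0.901 and 0.102 CPM with DMSO. In IK6 cells it had 1.85, 1.88 and 2.00 CPM with carbacyclin, against 0.468, 0.482, 0.574 and 0.458 CPM with DMSO. No libraries overlapped in either vector. The log2 fold change was 1.81 ± 0.31 in MIG cells (adjusted p = 9.6e-06) and 1.94 ± 0.32 in IK6 cells (adjusted p = 7.7e-06). Hist1h2ag, the H2A gene that faces it across the shared promoter, had 1.26, 1.23, 1.32 and 2.13 CPM with carbacyclin, against 0.546, 0.953, 1.10 and 0.644 CPM with DMSO in MIG cells. In IK6 cells Hist1h2ag had 2.06, 1.06 and 1.15 CPM with carbacyclin, against 0.729, 0.482, 0.599 and 0.697 CPM with DMSO. Its groups did not overlap either, and it rose by 0.86 ± 0.24 (adjusted p = 0.0038) in MIG cells and 1.18 ± 0.26 (adjusted p = 0.00046) in IK6 cells. Of the 6 facing pairs with both members tested, both rose with carbacyclin in 1 pair in MIG cells and in 2 in IK6 cells, 1 of the pair rose in 4 and 2, and neither in 1 and 2.

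The H3 gene Hist1h3c had 1.31, 1.35, 1.53 and 2.87 CPM with carbacyclin, against 0.706, 0.657, 1.21 and 0.610 CPM with DMSO in MIG cells. In IK6 cells it had 2.41, 1.74 and 1.26 CPM with carbacyclin, against 0.833, 0.867, 0.799 and 0.806 CPM with DMSO. The groups were separate in both vectors, and Hist1h3c rose by 1.17 ± 0.25 (adjusted p = 0.00022) in MIG and 1.15 ± 0.26 (adjusted p = 0.00054) in IK6 cells. The H4 gene Hist1h4d had 1.10, 0.870, 0.886 and 1.53 CPM with carbacyclin, against 0.481, 0.360, 0.509 and 0.305 CPM with DMSO in MIG cells. It rose by 1.38 ± 0.27 in MIG cells (adjusted p = 8e-05) and by 1.44 ± 0.31 in IK6 cells (adjusted p = 0.00033), without overlap in MIG cells. The H2B gene Hist1h2bk rose by 1.41 ± 0.29 in MIG and 1.03 ± 0.32 in IK6 cells, the second call being lost without IK6 carbacyclin replicate 1 (adjusted p = 0.068). Hist1h2ae rose by 1.06 ± 0.25 and 1.11 ± 0.27 in MIG and IK6 cells. In MIG cells the H3 gene Hist2h3c2 rose by 1.13 ± 0.31 (adjusted p = 0.0031) and the H2B gene Hist3h2ba by 0.94 ± 0.29 (adjusted p = 0.0079). Hist3h2a had 4.19, 4.58, 5.45 and 6.18 CPM with carbacyclin, against 2.79, 2.97, 3.49 and 2.74 CPM with DMSO in MIG cells. In IK6 cells Hist3h2a had 3.43, 3.47 and 3.71 CPM with carbacyclin, against 2.73, 3.21, 3.20 and 2.88 CPM with DMSO. It rose by 0.78 ± 0.10 in MIG cells (adjusted p = 1.5e-07) and had 0.24 ± 0.11 in IK6 cells (adjusted p = 0.098), although neither pair of groups overlapped.

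The most counted members moved otherwise. Hist2h2be had 14.6, 14.3, 14.5 and 16.0 CPM with carbacyclin, against 26.0, 27.4, 28.6 and 27.0 CPM with DMSO in MIG cells, and 16.7, 17.6 and 16.8 CPM against 27.1, 28.6, 30.3 and 30.4 CPM in IK6 cells. It was lower in every carbacyclin library, by 0.88 ± 0.07 in MIG cells (adjusted p = 1.4e-12) and 0.77 ± 0.07 in IK6 cells (adjusted p = 2.7e-10). Hist1h2bc fell by 0.44 ± 0.15 in MIG cells (adjusted p = 0.016), a call lost without MIG DMSO replicate 3 (adjusted p = 0.11), MIG carbacyclin replicate 1 (0.052) or MIG carbacyclin replicate 2 (0.07). Hist1h1c rose by 0.39 ± 0.12 in IK6 cells (adjusted p = 0.01), which was lost without IK6 carbacyclin replicate 1 (adjusted p = 0.061) or IK6 DMSO replicate 1 (0.056). Hist1h4i had log2 fold changes of 0.28 (adjusted p = 0.175) in MIG and 0.44 (adjusted p = 0.0562) in IK6 cells. By annotated transcript end, 14 of the 30 tested members with fewer than 300 bases after the stop codon rose and 1 fell with carbacyclin in MIG cells, against 7 and 4 of the 19 members with 300 or more. In IK6 cells the counts were 14 of 30 higher for the short ends and 3 of 19 for the long ends. The split by transcript end was chosen with values known, and its difference was not tested.

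Several measures of RNA quality and of short transcripts differed alongside carbacyclin, and their part in the result was not tested. The 181 tested genes with a transcript of at most 650 bases, ribosomal protein genes left out, had a median log2 fold change of 0.16 with carbacyclin in MIG cells (31 higher and 18 lower) and 0.03 in IK6 cells (15 higher and 11 lower). The 198 ribosomal protein genes had medians of 0.05 and 0.07. Small nuclear RNAs and RNase P RNA summed to 40.6, 59.3 and 55.9 CPM with carbacyclin, all below the 60.7 to 73.1 CPM with DMSO in IK6 cells. In MIG cells carbacyclin replicates 1 to 3 had 71.7 to 81.8 CPM, all above the 37.2 to 69.0 CPM with DMSO, and carbacyclin replicate 4 had 30.0 CPM, below them. The direction of this measure thus differed between the vectors. In the test of the difference between vectors, 1 of 49 members (2.04%) responded differently to carbacyclin, lower in IK6 cells, against 8.83% of all genes (5.66% higher and 3.17% lower). That was Hist3h2a, with -0.54 ± 0.15 (adjusted p = 0.02), a call lost without IK6 carbacyclin replicate 1 (adjusted p = 0.056) or replicate 2 (0.052). The fold changes had the same sign in 40 of 49 members (r = 0.72, rho = 0.65, across genes). The 12 members that rose in both vectors, Hist1h2ae, Hist1h2ag, Hist1h2bb, Hist1h2be, Hist1h2bj, Hist1h2bk, Hist1h2bl, Hist1h3a, Hist1h3c, Hist1h3h, Hist1h4d and Hist1h4n, were 12 of the 21 in MIG and of the 17 in IK6 cells. How many of all genes rose in both vectors was not computed. Of the 12, Hist1h2ae, Hist1h2ag, Hist1h2bb, Hist1h2bj, Hist1h3c and Hist1h4d kept both calls whichever single library was left out. The others lost a call in at least 1 vector.

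**Figure D5:**
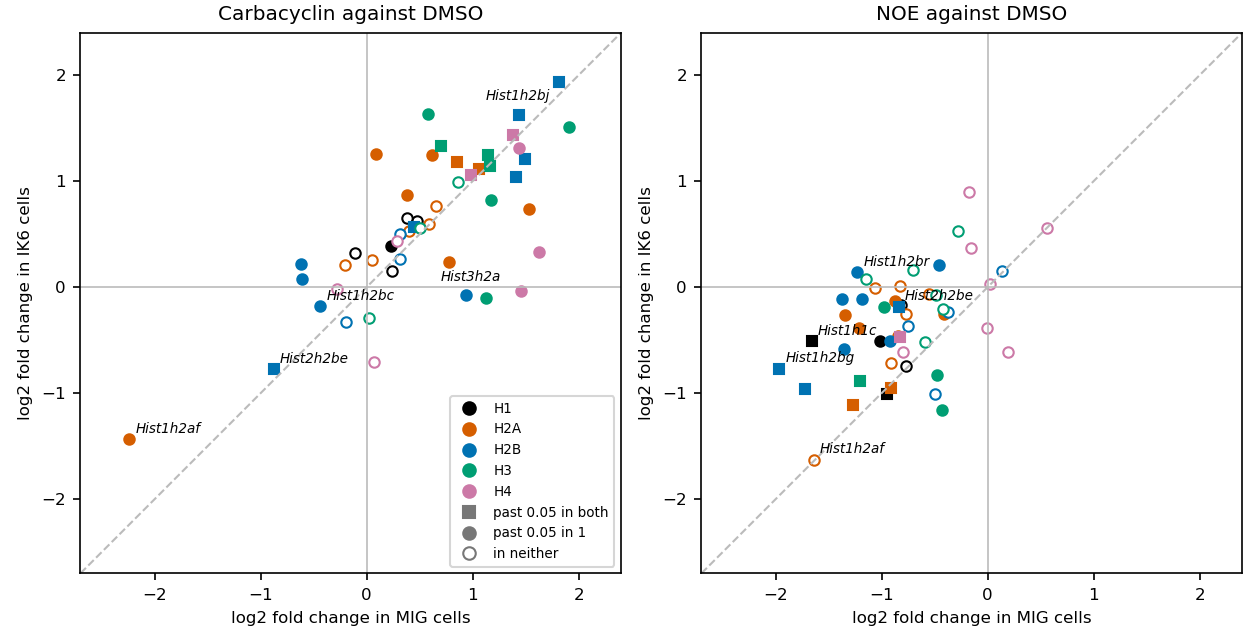
Log2 fold change in IK6 cells (y) against that in MIG cells (x) for carbacyclin (left) and NOE (right), 49 tested members coloured by family; squares passed an adjusted p of 0.05 in both vectors, filled circles in 1 and open circles in neither, and the dashed line marks equal change. With NOE, Hist1h1c and Hist1h2bg lie above the line, with the stronger fall in MIG cells; with carbacyclin, Hist1h2bj lies near it.

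With ATRA the linker histone gene Hist1h1c and the H2B gene Hist1h2bg rose in both vectors. Another 8 members fell in both, and the share of all genes that fell in both was not computed. Of those 8, Hist1h2bc and Hist2h2be kept both calls whichever single library was left out, and the others did not. In MIG cells 4 of 49 members rose (8.16%) and 12 fell (24.5%), against 20.6% and 21.2% of all genes (41.8% either way). In IK6 cells 5 rose (10.2%) and 11 fell (22.4%), against 22.7% and 20.9% (43.6% either way). The share that fell was near the background in both vectors. The medians over the members were -0.30 in MIG and -0.12 in IK6 cells, with -0.01 and 0.02 over all genes. Small nuclear RNAs and RNase P RNA moved alongside, at 71.9 to 95.7 CPM with ATRA and 37.2 to 69.0 CPM with DMSO in MIG cells, and at 73.8 to 81.6 CPM with ATRA and 60.7 to 73.1 CPM with DMSO in IK6 cells, and their part in the result was not tested.

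Hist1h1c had 28.9, 29.5, 32.1 and 30.5 CPM in MIG cells with ATRA, against 12.9, 13.4, 17.6 and 14.3 CPM with DMSO. In IK6 cells it had 36.0, 41.4, 42.0 and 34.6 CPM with ATRA, against 14.5, 19.8, 19.7 and 18.8 CPM with DMSO. Every ATRA library was above every DMSO library. The log2 fold change was 1.06 ± 0.12 in MIG cells (adjusted p = 3.4e-09) and 1.08 ± 0.11 in IK6 cells (adjusted p = 1.3e-09), and their difference was 0.03 (95% interval -0.30 to 0.35). Because Hist1h1c dominates its family, the summed H1 level averaged 31.5 ± 1.71 CPM in ATRA-treated MIG cells and 16.1 ± 1.97 CPM in their DMSO controls, and 40.5 ± 3.81 CPM in ATRA-treated IK6 cells and 19.9 ± 2.74 CPM in theirs (SD, n = 4 each). Other H1 genes differed from it. Hist1h1b had 0.126, 0.148, 0.123 and 0.0594 CPM with ATRA, against 0.417, 0.191, 0.314 and 0.373 CPM with DMSO in MIG cells, and fell by 1.44 ± 0.41 (adjusted p = 0.0048). In IK6 cells Hist1h1b fell by 0.83 ± 0.30 (adjusted p = 0.022), lost without IK6 DMSO replicate 2 (adjusted p = 0.066) or IK6 ATRA replicate 2 (0.099). Hist1h1d rose by 0.69 ± 0.21 in IK6 cells (adjusted p = 0.0081).

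Hist1h2bg had 3.71, 5.21, 5.41 and 4.04 CPM in MIG cells with ATRA, against 2.31, 2.52, 2.70 and 3.49 CPM with DMSO, and 4.76, 4.83, 4.99 and 5.92 CPM with ATRA against 2.89, 3.79, 3.07 and 3.42 CPM with DMSO in IK6 cells. The groups did not overlap, and it rose by 0.73 ± 0.15 in MIG (adjusted p = 0.00012) and 0.63 ± 0.14 in IK6 cells (adjusted p = 0.00034). Hist1h2bc had 6.45, 6.03, 6.82 and 7.28 CPM with ATRA, against 9.31, 9.89, 14.9 and 10.5 CPM with DMSO in MIG cells, and 7.70, 6.95, 7.59 and 6.35 CPM against 10.8, 10.7, 11.9 and 11.5 CPM in IK6 cells. All ATRA libraries were lower, and it fell by 0.74 ± 0.15 (adjusted p = 0.00019) and 0.65 ± 0.15 (adjusted p = 0.00062) in MIG and IK6 cells. The H4 gene Hist1h4k had 0.283, 0.414, 0.676 and 0.564 CPM with ATRA, against 0.642, 0.805, 0.666 and 1.02 CPM with DMSO in MIG cells, with ATRA replicate 3 inside the DMSO range. It fell by 0.76 ± 0.29 (adjusted p = 0.034), a call lost when any of MIG ATRA replicates 1 and 2 or MIG DMSO replicates 2 and 4 was left out (adjusted p of 0.071 to 0.15). Hist2h2be had 17.7, 17.9, 18.2 and 18.3 CPM with ATRA, against 26.0 to 28.6 CPM with DMSO in MIG cells, and 16.0, 15.9, 15.7 and 14.4 CPM with ATRA, against 27.1 to 30.4 CPM with DMSO in IK6 cells. It fell by 0.60 ± 0.07 (adjusted p = 9.9e-09) in MIG and 0.91 ± 0.07 (adjusted p = 6e-13) in IK6 cells. The copies Hist1h2bq and Hist1h2br fell by 0.70 ± 0.20 and 0.78 ± 0.21 in MIG cells and by 0.62 ± 0.19 and 0.65 ± 0.21 in IK6 cells, and both IK6 calls were lost without IK6 DMSO replicate 4 (adjusted p = 0.052 and 0.097).

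In the test of the difference between vectors, 2 of 49 members (4.08%) responded differently to ATRA, both lower in IK6 cells, against 9.78% of all genes (5.34% higher and 4.44% lower). Hist2h2be fell more in IK6 cells, by a difference of -0.31 ± 0.10 (adjusted p = 0.034), a call lost when any of 5 libraries was left out (adjusted p of 0.051 to 0.078). Those were MIG DMSO replicate 1, MIG ATRA replicate 4, IK6 DMSO replicates 3 and 4 and IK6 ATRA replicate 4. The H4 gene Hist2h4 had 0.0566, 0.262, 0.149 and 0.235 CPM with ATRA, against 0.625, 0.450, 0.350 and 0.458 CPM with DMSO in IK6 cells, and 0.346, 0.621, 0.676 and 0.475 CPM against 0.321, 0.487, 0.274 and 0.373 CPM in MIG cells. It fell by 1.29 ± 0.36 in IK6 cells (adjusted p = 0.004) and had 0.44 ± 0.35 in MIG cells, and the difference of -1.74 ± 0.50 (adjusted p = 0.022) was lost without MIG ATRA replicate 2 (adjusted p = 0.055), IK6 DMSO replicate 1 (0.055) or IK6 ATRA replicate 1 (0.054). The H2A gene Hist1h2af varied widely among libraries of a group. It had 0.227, 0.0499, 0.0598 and 0.353 CPM with ATRA, against 2.94, 1.67, 1.27 and 1.92 CPM with DMSO in IK6 cells, but 0 to 1.50 CPM with NOE against 0.431 to 2.20 CPM with DMSO in MIG cells. The IK6 ATRA groups were separate and it fell by 3.79 ± 0.97 there (adjusted p = 0.0019). Hist1h2af was also called lower with bexarotene in IK6 cells, kept whichever single library was left out, and with carbacyclin in MIG cells. The carbacyclin call was lost without MIG DMSO replicate 2 or 4 or MIG carbacyclin replicate 2, 3 or 4 (adjusted p 0.072 to 0.14).

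With bexarotene, the other retinoid, Hist3h2a rose and Hist1h2ac, Hist1h2bg and Hist2h2be fell in both vectors. In MIG cells 6 of 49 rose (12.2%) and 4 fell (8.16%), against 19.9% and 18.2% of all genes (38.1% either way), with a median of 0.29 over the members. In IK6 cells 1 rose (2.04%) and 7 fell (14.3%), against 22.3% and 19.4% (41.8% either way), with a median of -0.17. With library totals in place of TMM the split was 9 rising and 3 falling members in MIG cells and 2 and 6 in IK6 cells, and DESeq2 gave 3 rising and 4 falling in MIG cells. The MIG count was 5 without MIG DMSO replicate 1 and 6 without MIG bexarotene replicate 2, and the IK6 count was 5 without IK6 DMSO replicate 2. Fitting the compared groups alone gave 4 in MIG cells, and the ribosomal protein share as a covariate gave 14 in IK6 cells. Small nuclear RNAs and RNase P RNA summed to 86.4 to 87.5 CPM with bexarotene and 60.7 to 73.1 CPM with DMSO in IK6 cells, and to 64.0 to 98.1 CPM with bexarotene and 37.2 to 69.0 CPM with DMSO in MIG cells, and their part was not tested. In the test of the difference between vectors, 0 members passed, against 5.69% of all genes (3.13% higher and 2.56% lower), with 0 higher and 3 lower at an unadjusted p below 0.05 by edgeR and 0 calls by DESeq2.

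The H2A gene Hist3h2a rose with bexarotene in both vectors. It had 4.50, 5.46 and 4.69 CPM with bexarotene, against 2.73, 3.21, 3.20 and 2.88 CPM with DMSO in IK6 cells, and 3.72, 4.24 and 4.07 CPM against 2.79, 2.97, 3.49 and 2.74 CPM in MIG cells. Neither pair overlapped, and it rose by 0.69 ± 0.11 in IK6 cells (adjusted p = 5.4e-06) and 0.43 ± 0.11 in MIG cells (adjusted p = 0.0026). Hist2h2be had 18.8, 16.0 and 15.9 CPM in IK6 cells and 17.9, 17.9 and 16.6 CPM in MIG cells with bexarotene, all below the DMSO libraries given above. It fell by 0.78 ± 0.07 in IK6 and 0.64 ± 0.07 in MIG cells. Hist1h2bg had 1.68, 3.17 and 2.49 CPM in IK6 cells and 1.84, 1.88 and 1.79 CPM in MIG cells with bexarotene, against 2.89 to 3.79 and 2.31 to 3.49 CPM with DMSO. It fell by 0.58 ± 0.17 in MIG cells (adjusted p = 0.0063), without overlap. In IK6 cells, where bexarotene replicate 2 lay within the DMSO range, it fell by 0.48 ± 0.16 (adjusted p = 0.017), a call lost without IK6 bexarotene replicate 1 (adjusted p = 0.29) or IK6 DMSO replicate 2 (0.056). The H2A gene Hist1h2ac fell by 0.96 ± 0.35 in IK6 cells (adjusted p = 0.029), a call lost without IK6 DMSO replicate 4 (adjusted p = 0.16) or IK6 bexarotene replicate 2 (0.058) or 3 (0.22), and by 1.28 ± 0.34 in MIG cells (adjusted p = 0.003). Hist1h2ag fell by 1.35 ± 0.36 in IK6 cells (adjusted p = 0.0025), with 0.304, 0.219 and 0.188 CPM with bexarotene, against 0.729, 0.482, 0.599 and 0.697 CPM with DMSO, which did not overlap.

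The 2 retinoids, set directly against each other at the same dose, differed in 8 members in MIG cells (6 higher and 2 lower with bexarotene) and in 5 in IK6 cells (2 higher and 3 lower). That was 16.3% of members, against 23.6% of all genes (12.6% higher and 11.0% lower), in MIG cells and 10.2%, against 21.9% (11.7% and 10.2%), in IK6 cells. The MIG count was 5 without MIG ATRA replicate 4, and with the ribosomal protein share as a covariate the counts were 14 in MIG and 9 in IK6 cells. Library totals in place of TMM gave 4 higher and 3 lower in IK6 cells. Hist1h1c was lower with bexarotene in both vectors, at 12.6, 13.7 and 14.8 CPM with bexarotene against 28.9 to 32.1 CPM with ATRA in MIG cells, and 14.2, 20.7 and 18.1 CPM against 34.6 to 42.0 CPM in IK6 cells. The log2 fold change of bexarotene over ATRA was -1.14 ± 0.13 in each vector (adjusted p = 1.3e-08 in MIG and 1.5e-08 in IK6 cells). Against DMSO, bexarotene left Hist1h1c at -0.08 (95% interval -0.34 to 0.17) in MIG and -0.05 (-0.31 to 0.20) in IK6 cells. Hist1h2bg was lower with bexarotene than with ATRA by 1.30 ± 0.16 in MIG and 1.12 ± 0.16 in IK6 cells (adjusted p = 1.7e-07 and 2.2e-06). Hist1h2bc was higher with bexarotene than with ATRA by 0.65 ± 0.16 in MIG cells (adjusted p = 0.0029), and Hist3h2a by 0.50 ± 0.11 in IK6 cells (adjusted p = 0.00079). For Hist1h1b the MIG difference was 2.04 ± 0.39 and for Hist2h4 the IK6 difference was 1.90 ± 0.37, both from levels under 1 CPM.

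IK6 itself, compared with the empty vector in DMSO, had 2 called members (4.08%), both higher, against 26.0% of all genes (13.3% higher and 12.7% lower). Hist1h1c had 14.5, 19.8, 19.7 and 18.8 CPM in IK6 cells, against 12.9, 13.4, 17.6 and 14.3 CPM in MIG cells, and these ranges overlapped. Its log2 fold change was 0.32 ± 0.12 (adjusted p = 0.034). The H2B gene Hist3h2ba had 1.20, 1.41, 1.60 and 1.57 CPM in IK6 cells, against 0.417, 0.763, 1.41 and 0.745 CPM in MIG cells, with MIG replicate 3 inside the IK6 range, and a log2 fold change of 0.83 ± 0.29 (adjusted p = 0.032). Both calls were lost when MIG DMSO replicate 1 or 2 or IK6 DMSO replicate 3 or 4 was left out, so that 0 members passed, with adjusted p of 0.079 to 0.10 for Hist1h1c and 0.075 to 0.13 for Hist3h2ba. Both were also lost without MIG DMSO replicate 4 (adjusted p = 0.054 and 0.067), where 1 other member passed, and Hist1h1c was lost without IK6 DMSO replicate 2 (adjusted p = 0.11). Summed over all members the level was 91.5 ± 4.26 CPM in IK6 and 86.3 ± 8.93 CPM in MIG cells (SD, n = 4 each).

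Across the 8 comparisons with DMSO, Hist2h2be was the member that passed in all 8, lower each time, and 10 members passed in 4 or more. Hist1h1a, Hist1h1e, Hist1h2ah, Hist1h3b and Hist1h3d passed in 0 of 8. No member was called in opposite directions in the 2 vectors with the same compound. Comparisons with the same vector share their DMSO libraries, so these counts are not independent. Of all genes, 38.1% to 48.0% passed in each of the 8 comparisons, either way. The same counts across comparisons were not computed for all genes.

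Genes of the cell cycle and of histone supply were followed beside the members. Of 30 S phase genes, such as the helicase subunit gene Mcm5, 30 fell in MIG and 29 in IK6 cells with NOE. With ATRA 28 and 29 fell, and with bexarotene 16 and 28 fell and 1 rose in MIG cells. Of all genes tested, 22.3% and 18.2% fell in MIG and IK6 cells with NOE, 21.2% and 20.9% with ATRA, and 18.2% and 19.4% with bexarotene. With carbacyclin 10 rose and 2 fell in MIG cells and 14 rose and 3 fell in IK6 cells. Of all genes, 24.7% rose and 23.3% fell with carbacyclin in MIG cells, and 20.8% rose and 18.8% fell in IK6 cells. The list's median log2 fold change was -1.40 with NOE, -0.92 with ATRA, -0.29 with bexarotene and 0.09 with carbacyclin in MIG cells, and -1.20, -0.72, -0.67 and 0.23 in IK6 cells. With ATRA the S phase list and Hist1h1c moved in opposite directions. In IK6 against MIG cells with DMSO, 21 of the 30 S phase genes were higher, against 13.3% of all genes, with a median of 0.37. Mcm5 averaged 27.8 ± 2.49 CPM with NOE and 102.6 ± 17.2 CPM with DMSO in MIG cells, and 44.9 ± 3.96 CPM with NOE and 129.4 ± 10.5 CPM with DMSO in IK6 cells (SD, n = 4 each).

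Slbp, whose product binds the stem-loops shown above, had 46.4 ± 2.92 CPM with NOE and 76.0 ± 2.39 CPM with DMSO in MIG cells, and 48.1 ± 1.77 CPM with NOE and 89.2 ± 2.85 CPM with DMSO in IK6 cells. It fell by 0.71 ± 0.06 and 0.89 ± 0.06 with NOE and by 0.44 ± 0.06 and 0.54 ± 0.06 with ATRA in MIG and IK6 cells, and by 0.38 ± 0.06 with bexarotene in IK6 cells. With carbacyclin Slbp had log2 fold changes of 0.05 (adjusted p = 0.5) and 0.15 (adjusted p = 0.051). Npat, the S phase activator of histone genes, fell with ATRA by 0.40 ± 0.08 in MIG and 0.32 ± 0.08 in IK6 cells and had -0.11 (adjusted p = 0.26) and -0.18 (adjusted p = 0.077) with NOE. Of the 20 tested genes of histone transcription and 3′ end processing, 4 rose and 9 fell in MIG and 2 rose and 11 fell in IK6 cells with NOE. With ATRA the counts were 3 and 11 in MIG and 2 and 13 in IK6 cells. With bexarotene they were 2 and 5 and then 2 and 11, and with carbacyclin 6 and 8 and then 6 and 5. Of all genes, 22.6% and 22.8% rose in MIG and IK6 cells with NOE, 20.6% and 22.7% with ATRA, and 19.9% and 22.3% with bexarotene. The other shares of all genes are those given with the S phase genes, and the list counts were not tested against them. Lsm11, a subunit of the U7 particle, fell in all 8 comparisons, by 0.34 to 0.71. Zfp473, a zinc finger protein of the same particle, also fell in all 8, by 1.51 ± 0.11 and 1.72 ± 0.11 with ATRA in MIG and IK6 cells.

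Of 8 genes of histone mRNA decay, 2 fell in MIG and 3 in IK6 cells with NOE and 0 rose. Of all genes, 22.3% and 18.2% fell there, so the MIG share was near the background. Among the decay genes that fell was Eri1, a nuclease that trims the stem-loop, by 0.72 ± 0.10 and 0.58 ± 0.10. For the next lists the shares of all genes are those given above. Of 17 histone chaperone and assembly genes, 12 fell and 1 rose in MIG and 14 fell in IK6 cells with NOE. With ATRA 10 fell in MIG cells, and 9 fell and 1 rose in IK6 cells. With bexarotene 7 fell and 1 rose in MIG cells, and 9 fell and 1 rose in IK6 cells. With carbacyclin 5 rose and 1 fell in MIG and 8 rose and 1 fell in IK6 cells. Nasp, a carrier of H1 and H3, fell by 1.09 ± 0.07 and 1.11 ± 0.07 with NOE and rose by 0.16 ± 0.07 (adjusted p = 0.045) and 0.31 ± 0.07 (adjusted p = 0.00082) with carbacyclin in MIG and IK6 cells. Most, though not all, replacement-type histone genes make polyadenylated transcripts outside S phase as well. Of the 10 tested genes on that list, 6 fell and 1 rose in MIG and 3 fell and 1 rose in IK6 cells with NOE. On that list H2afx, the variant phosphorylated at DNA breaks, and Cenpa, the centromeric H3, fell in all 8 comparisons. H3f3b, one of the genes of replacement H3, rose with carbacyclin by 0.34 ± 0.06 and 0.44 ± 0.07 in MIG and IK6 cells and fell with NOE by 0.49 ± 0.06 in MIG cells.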

How the data were processed

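RNA was sequenced in 37 libraries on an Illumina HiSeq with the TruSeq RNA v2 kit, per the labels. Capture of transcripts without a poly(A) tail was not tested, and levels and changes of members cover only the RNA that was captured. The authors deposited raw counts per gene, made with BWA 0.5.9 and HTSeq on mm9, per the submitters' processing notes; library totals were 16.5 to 80.4 M counts. The sources used here do not say how multi-mapped reads, strand and gene models were handled.

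Members and lists were chosen with earlier results of these data known. Genes were filtered with filterByExpr (minimum count 10, total 15), scaled by TMM and fitted in 1 robust edgeR 4.0.16 quasi-likelihood model of the 10 groups (27 residual df); p-values were Benjamini-Hochberg adjusted over 15699 genes at 0.05. Fold changes are log2 with a prior count of 0.125, the SE coming from the fit. Fits were tested on simulated data. The rule for per-library values took the 3 members of each family with the highest mean CPM. Per comparison, it added up to 4 rising and 4 falling members with the largest change where either group averaged 1 CPM or more. Not all values under that rule are printed. Hist1h1d, Hist1h2ae, Hist1h2bk, Hist1h2bq, Hist1h2br, Hist1h3d and Hist2h3c2 fell under it but have no full series here. Hist1h2ac, Hist2h4 and the genes named from other lists, Slbp and Npat apart, were chosen after their values were seen. Replicate libraries of each group differed beyond sampling noise (chi-square per degree of freedom 2.32 to 243). Deviations of same-numbered libraries had positive correlations (0.23 to 0.62) in bexarotene against DMSO in MIG cells. The highest was for replicate 3, where both libraries had a high ribosomal protein share (15.4% with DMSO and 12.5% with bexarotene). Pairing by replicate number and this shared feature cannot be told apart. The replicate block changed the count of calls by less than 1.5 times. Alternatives were other scalings, filters, DESeq2 1.42.0 and left-out libraries. Sequences came from GENCODE M21 (GRCm38) and RefSeq (GRCm38.p6), not the authors' build.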

Additional observations from a re-analysis of the deposited data

Results flagged for a closer look

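The following values stood apart by a fixed measure: in a group of 4 libraries, the highest or lowest lay far from the other 3 relative to the group's range. Of 161 groups of 4 examined this way, 10 met it, and chance gives about 1 in 20. In MIG cells with carbacyclin, replicate 4 had the highest Hist1h2ag level at 2.13 CPM, the highest Hist1h3c level at 2.87 CPM and the lowest Hist1h2bg level at 3.25 CPM. That library also had the highest share of ribosomal protein counts, 15.5%, and whether that bears on these levels was not tested. In MIG cells with DMSO, replicate 3 was highest for Hist1h3c at 1.21 CPM and for the sum of the members outside the 6 most counted at 22.0 CPM, with a ribosomal protein share of 15.4%. In IK6 cells with ATRA, replicate 1 was highest for Hist1h2ag at 0.708 CPM, replicate 2 was highest for Hist3h2ba at 1.66 CPM, and replicate 4 was lowest for Hist2h2be at 14.4 CPM. In MIG cells with NOE, replicate 4 was highest for Hist1h3d at 0.442 CPM. In MIG cells with ATRA, replicate 3 was highest for Hist1h4d at 0.553 CPM.

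A further 9 responses differed between the vectors in the edgeR test of the difference itself, given as the log2 fold change in IK6 minus that in MIG cells. With NOE the differences were 1.15 for Hist1h1c, 1.07 for Hist1h2bc, 1.20 for Hist1h2bg, 1.26 for Hist1h2bq, 1.37 for Hist1h2br and 0.66 for Hist2h2be. With ATRA they were -0.31 for Hist2h2be and -1.74 for Hist2h4, and with carbacyclin -0.54 for Hist3h2a.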

How the results depend on the processing

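No called member changed direction in any alternative run. Counts of called members that moved by more than 1.5 times, or that left out 1 library each, follow; the cause was not tested beyond the number of genes or libraries an alternative uses. With no filter on low counts, 6 members were called for bexarotene in MIG, 7 for NOE in IK6 and 1 for the ATRA difference between vectors. With at least 1 CPM in 3 libraries, which left 19 members to test, the counts were 10 for ATRA, 5 for bexarotene, 13 for carbacyclin and 11 for NOE in MIG, 8 for ATRA, 9 for carbacyclin and 5 for NOE in IK6, and 1 for the ATRA difference. Fitting the compared groups alone gave 4 for bexarotene and 12 for carbacyclin in MIG, 1 for IK6 against MIG, 1 for the bexarotene difference and 0 for the carbacyclin difference. In alternatives chosen after seeing the data, 4 passed for the carbacyclin difference without the 3 libraries of high ribosomal protein share. With that share as a covariate, 14 passed for bexarotene in IK6, 4 for the bexarotene difference, 4 for the carbacyclin difference, 14 for bexarotene against ATRA in MIG and 9 in IK6. Leaving out 1 library at a time gave ranges of 11 to 16 (ATRA), 5 to 10 (bexarotene), 17 to 29 (carbacyclin) and 16 to 21 (NOE) in MIG, and 11 to 16, 5 to 8, 10 to 19 and 5 to 10 for the same compounds in IK6. The ranges were 0 to 2 for IK6 against MIG, 5 to 11 and 5 to 6 for bexarotene against ATRA in MIG and IK6, and 1 to 3, 0 to 1, 0 to 2 and 6 to 6 for the ATRA, bexarotene, carbacyclin and NOE differences. The carbacyclin difference gave 2 without MIG DMSO replicate 3 or IK6 DMSO replicate 4 and 0 without IK6 carbacyclin replicate 2.

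Of single-member calls, those no longer past the threshold were 22 of 151 with DESeq2, 29 of 151 with no filter, 1 of 151 with RLE scaling, 4 of 151 with library totals, 3 of 151 with upper-quartile scaling and 237 of 1220 over all left-out libraries. With the replicate number as a block, the counts were 14, 10, 24 and 21 for ATRA, bexarotene, carbacyclin and NOE in MIG and 16, 8, 20 and 11 in IK6, and 6 of 151 single calls were lost. Outside bexarotene against DMSO in MIG, the correlations of deviations of same-numbered libraries were not all positive (from -0.46 to 0.36 with carbacyclin in MIG). Summing members with identical proteins was not run, since no protein table was used here. Members with few unique windows or under 1 CPM are limited by read assignment and counting error.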
